A study of Mus musculus with 23 samples.

Results

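The constitutive androstane receptor CAR, the pregnane X receptor PXR and 6 genes that work with them in hepatocytes were followed in mouse liver with and without β-catenin and with and without phenobarbital. The 8 genes were Nr1i3 (CAR), Nr1i2 (PXR), Rxra, Hnf4a, Ppara, Nr1h3, Nr5a2 and Ppargc1a. They were taken by the gene symbol of the array's annotation, as all probe sets assigned to that gene alone. This gave 23 of the 34945 probe sets assigned to exactly 1 gene, and 8 of 18193 genes. Nr1i3 and Nr1h3 had 1 probe set each, Nr1i2 had 2, Rxra and Ppara 3, Hnf4a and Nr5a2 4, and Ppargc1a 5. No probe set shared by several genes named any of them. The rule that assigns probe sets uses no measured values, but the 8 genes were chosen with earlier results of these data known.

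CAR is a nuclear receptor that is held in the cytoplasm of the hepatocyte until an activator such as phenobarbital releases it. In the nucleus it binds response elements as a heterodimer with RXRα and switches on genes of drug metabolism, with Cyp2b10 as the classical target. PXR is its closest relative, binds many of the same elements and responds to ligands directly. HNF4α, PPARα, LXRα and LRH-1 are other receptors of the hepatocyte, and PGC-1α is a coactivator that several of them recruit. Phenobarbital activates CAR by way of EGFR signalling and dephosphorylation, so the amount of receptor RNA is a different quantity from its activity.

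RNA was measured in liver of male C3H mice on 23 Affymetrix arrays, 1 per sample. There were 5 wild-type arrays and 7 CTNNB1KO arrays without phenobarbital, and 4 wild-type and 7 CTNNB1KO arrays with 0.05% phenobarbital in the diet for 12 weeks. CTNNB1KO mice carry Ctnnb1 with loxP sites around exons 3 and 6 and Cre recombinase under the albumin promoter, which is active in hepatocytes. Whether all other liver cells keep the gene was not tested. The parent lines had been crossed back into C3H/N for 5 generations. Control mice ate diet without phenobarbital, while the labels also call their treatment vehicle water. Ages are not given. Replicates are numbered, but nothing states that they are separate animals, and a p-value covers only how far the samples scatter. The comparison of interest here was whether the RNA level of the receptors differed where the phenobarbital response differed between the genotypes.

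All values are log2 signals normalized by the authors, in which 1 unit is a doubling. Probe sets bind with different strength, so a level is compared between groups for the same probe set and never between genes. The median over all probe sets lay between 5.09 and 5.14 in every array. The number of arrays limits the precision. Spread was larger in CTNNB1KO liver, where array pairs of a group correlated at 0.945 or more without phenobarbital and 0.968 or more with it, against 0.989 and 0.995 in wild type. Replicates 2, 6 and 7 of CTNNB1KO without phenobarbital stood apart, with the lowest estimated array weights of all 23, 0.54, 0.32 and 0.21. They also hold the 3 lowest Nr1i3 values and the 3 highest macrophage marker means of their group. Many of the counts and values they change are therefore given with and without them. Ctnnb1 RNA itself was 12.20 ± 0.02 in wild type and 12.25 ± 0.11 in CTNNB1KO without phenobarbital (SD, n = 5 and 7). This is no check of the deletion, because the position of the probes relative to the removed exons was not determined and the 3' labelling reads the end of the transcript. The 15 perivenous genes of the fixed list, which depend on β-catenin, all fell in CTNNB1KO with and without phenobarbital. All 9 measured hepatocyte markers were above the filter in every array, with array means from 13.76 to 14.02.

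Markers of other liver cells moved with genotype. Of 14 macrophage markers tested, 11 rose in CTNNB1KO without phenobarbital and 10 with it, where 14.8% and 11.9% of all genes rose. Without replicates 2, 6 and 7 of the CTNNB1KO controls, 1 and 12 rose. Their mean log2 signal ranged from 6.73 to 7.36 and from 6.66 to 6.89 in the wild-type arrays without and with phenobarbital. In CTNNB1KO it ranged from 7.44 to 9.72 and from 7.33 to 9.23, and 13 of the 14 were above the filter in all arrays. On neither diet do the genotypes overlap in this mean, so macrophage markers and genotype cannot be told apart. A model with this mean as a covariate draws on differences within groups. Of 11 stellate cell markers 8 and 6 rose, and of 9 endothelial markers 8 and 7 (without those 3 arrays 6 and 8, and 8 and 7). In whole liver, fewer cells of a type and less RNA per cell cannot be told apart, and this holds for every lower value given here.

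Nr1i3 RNA was lower in CTNNB1KO liver than in wild type under both diets. The 5 wild-type arrays without phenobarbital read 8.70, 8.56, 8.87, 8.84 and 8.65. The 4 wild-type arrays with phenobarbital read 8.80, 8.69, 8.62 and 8.55. These 2 groups overlap, with means of 8.73 ± 0.13 (SD, n = 5) and 8.66 ± 0.10 (SD, n = 4). In CTNNB1KO without phenobarbital the lowest, median and highest array were 6.09, 7.41 and 8.19. With phenobarbital they were 5.94, 6.44 and 6.77. Every CTNNB1KO array lay below every wild-type array, and the group means were 7.19 ± 0.79 and 6.42 ± 0.25 (SD, n = 7 each). The order of the means was therefore wild type without, wild type with, CTNNB1KO without and CTNNB1KO with phenobarbital. The CTNNB1KO arrays without phenobarbital were the most scattered of the 4 groups, and some of them lay within the range of those with it.

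**Figure D1:**
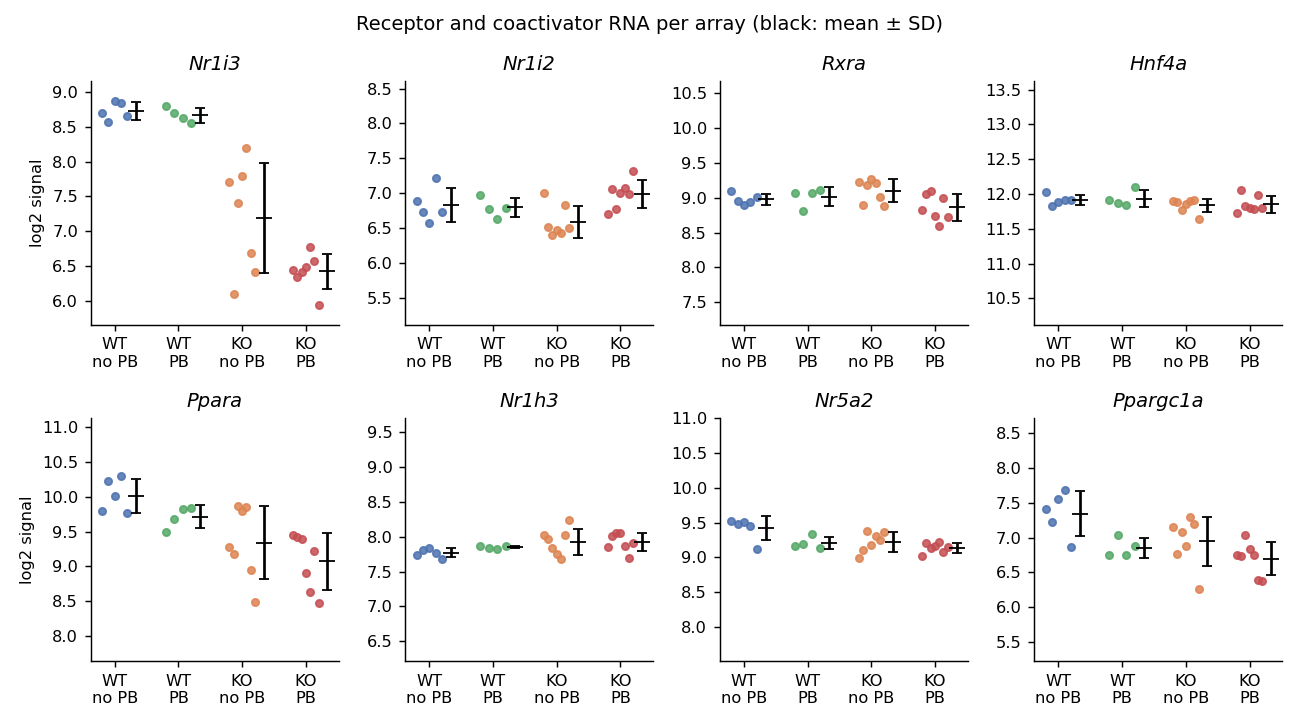
Log2 signal of the 8 genes in each of the 23 arrays, by genotype (WT wild type, KO CTNNB1KO) and phenobarbital (PB), with each group's mean and SD in black. All 8 panels span the same number of log2 units. All 14 CTNNB1KO arrays lie below all 9 wild-type arrays for Nr1i3, while the groups overlap for Hnf4a.

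Without phenobarbital, Nr1i3 was 2.91-fold lower in CTNNB1KO, a log2 change of -1.54 (SE 0.26, 95% interval -2.08 to -1.002, adjusted p = 0.000242, limma with Benjamini-Hochberg adjustment). With phenobarbital it was 4.72-fold lower, a log2 change of -2.24 (SE 0.28, interval -2.82 to -1.66, adjusted p = 7.19e-06). Neither call was lost in any of 35 alternative settings. Without the 3 arrays that stood apart, the first change was -0.95 (adjusted p = 0.000139). With the macrophage marker mean as a covariate the changes were -0.95 (adjusted p = 0.0319) and -1.58 (adjusted p = 0.00114).

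Phenobarbital in wild type gave a log2 change of Nr1i3 of -0.06 (SE 0.30, interval -0.68 to 0.56, adjusted p = 0.967). In CTNNB1KO the change was -0.76 (SE 0.24, interval -1.25 to -0.27, adjusted p = 0.101), which did not pass the threshold. The difference between these 2 responses, the interaction, was -0.70 (SE 0.38, interval -1.49 to 0.089, adjusted p = 0.576). Both values move with the arrays that stood apart. Without replicates 2, 6 and 7, the change in CTNNB1KO was -1.35 (adjusted p = 4.05e-06) and the interaction -1.29 (adjusted p = 0.00120). Those arrays hold the lowest Nr1i3 values of the control group, so leaving them out raises its mean by construction. Leaving out replicate 2 alone gave -0.94 (adjusted p = 0.0212), and replicate 7 alone -0.89 (adjusted p = 0.0388). With all arrays kept, the change in CTNNB1KO also passed with array weights (-1.07, adjusted p = 0.00291) and with the macrophage covariate (-0.81, adjusted p = 0.0166).

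The upstream sequences of the 2 xenobiotic receptors are shown because Nr1i3 fell with β-catenin loss and Nr1i2 did not pass the test. β-catenin acts on promoters through TCF/LEF factors. The sequences come from the RefSeq promoter table of GRCm38.p6, read 5' to 3' towards the gene and without bases inside the annotated gene. They lie at chr1:171213720-171213933 on the plus strand for Nr1i3 and chr16:38294850-38295074 on the minus strand for Nr1i2. Capitals mark a match to the TCF/LEF motif on either strand.
Nr1i3: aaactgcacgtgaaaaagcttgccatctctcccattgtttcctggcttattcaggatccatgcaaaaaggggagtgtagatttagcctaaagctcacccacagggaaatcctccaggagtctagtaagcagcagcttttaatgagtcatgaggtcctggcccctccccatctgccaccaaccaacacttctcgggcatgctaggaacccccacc
Nr1i2: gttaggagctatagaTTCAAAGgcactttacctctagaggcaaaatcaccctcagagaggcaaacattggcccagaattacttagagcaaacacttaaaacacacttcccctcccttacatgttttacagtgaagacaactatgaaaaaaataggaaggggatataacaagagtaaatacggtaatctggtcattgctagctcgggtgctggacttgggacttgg
The search covered the 250 bases before each of 12 annotated starts of the 8 genes, on both strands, for 4 motifs. These were the TCF/LEF letters CTTTGAT or CTTTGAA, the receptor hexamers AGGTCA and AGTTCA, and CAAAGTCC, a core of the HNF4α motif. None overlapped another match. The Nr1i3 window held none of the 4. The Nr1i2 window held CTTTGAA on the minus strand, from base 235 to base 229 before the start. AGGTCA was found 2 times before the second Rxra start and 1 time before the second Nr5a2 start. Of all 32851 windows of that length, 7.48% held a TCF/LEF match, 14% AGGTCA, 11.8% AGTTCA and 1.2% CAAAGTCC. A match is a description of letters, and more distant sequence was not searched.

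Nr1i2, the gene of PXR, passed the test in none of the 5 comparisons, with 2 at an unadjusted p under 0.05. Its 5 wild-type arrays without phenobarbital read 6.89, 6.73, 6.57, 7.21 and 6.73. The 4 with phenobarbital read 6.98, 6.78, 6.63 and 6.79. CTNNB1KO arrays ran from 6.40 over a median of 6.50 to 6.998 without phenobarbital, and from 6.71 over 7.0004 to 7.32 with it. All 4 groups overlap. The mean was highest in CTNNB1KO with phenobarbital (6.99 ± 0.20, SD, n = 7) and lowest in CTNNB1KO without it (6.59 ± 0.23, SD, n = 7), and both wild-type means lay between them. Phenobarbital in CTNNB1KO gave a log2 change of 0.40 (SE 0.11, interval 0.17 to 0.63, adjusted p = 0.0579), and it passed in 8 of 35 alternatives, with adjusted p from 0.0221 to 0.0476, among them those without CTNNB1KO control replicate 1 or 6 or wild-type control replicate 4. Of its 2 probe sets tested alone, 1451807_at rose by 0.40 (adjusted p = 0.0485) and 1425723_at gave 0.29 (adjusted p = 0.0682). The interaction was 0.43 (SE 0.18, interval 0.067 to 0.80, adjusted p = 0.364), and genotype without phenobarbital gave -0.24 (SE 0.12, adjusted p = 0.152).

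Rxra, the shared dimer partner of CAR, PXR, PPARα and LXRα, passed the test in none of the 5 comparisons. Wild-type arrays read 9.10, 8.96, 8.89, 8.94 and 9.01 without phenobarbital and 9.08, 8.82, 9.06 and 9.11 with it. CTNNB1KO arrays ran from 8.88 over 9.19 to 9.27 without phenobarbital and from 8.59 over 8.83 to 9.10 with it. The groups overlap throughout. The largest log2 change in the 4 pairwise comparisons was -0.24 for phenobarbital in CTNNB1KO (SE 0.08, adjusted p = 0.150). It was -0.36 (adjusted p = 0.0172) without replicates 2, 6 and 7, and -0.26 (adjusted p = 0.0228) with the macrophage mean as a covariate. With that covariate genotype without phenobarbital gave 0.34 (adjusted p = 0.0207), against 0.12 (adjusted p = 0.336) without it. The second tested probe set ran the other way. 1425762_a_at fell in CTNNB1KO without phenobarbital (-0.28, adjusted p = 0.0179), where 1454773_at gave 0.12 (adjusted p = 0.346). Under phenobarbital in CTNNB1KO the same 2 gave 0.22 and -0.24 (adjusted p = 0.126 and 0.136). The third, 1430497_at, was above the filter in 0 arrays.

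Hnf4a, the master regulator of hepatocyte genes and an activator of the CAR gene, had the smallest standard errors of the 8 genes in each comparison. Its arrays read 12.02, 11.82, 11.88, 11.91 and 11.91 in wild type without phenobarbital and 11.92, 11.87, 11.85 and 12.10 with it. In CTNNB1KO they ran from 11.64 over 11.88 to 11.91 and from 11.72 over 11.80 to 12.06. The groups overlap, and the 95% intervals of the 4 pairwise comparisons all lay between -0.22 and 0.18. None of its 4 probe sets passed the test in any comparison. The group with the lowest CAR RNA had Hnf4a RNA at 11.85 ± 0.12 (SD, n = 7), against 11.93 ± 0.12 (SD, n = 4) in wild type on the same diet. The activity of HNF4α was not measured, and its part in the Nr1i3 level was not tested.

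Ppara, the receptor that drives fatty acid oxidation, was the second gene to fall in CTNNB1KO. Wild-type arrays read 9.79, 10.22, 10.01, 10.30 and 9.76 without phenobarbital and 9.49, 9.68, 9.83 and 9.84 with it. CTNNB1KO arrays ran from 8.48 over 9.28 to 9.86 without phenobarbital and from 8.47 over 9.22 to 9.45 with it. The control groups overlap, because 3 CTNNB1KO arrays reached 9.80 to 9.86, while the phenobarbital groups do not. Without phenobarbital the log2 change was -0.67 (SE 0.22, interval -1.13 to -0.22, adjusted p = 0.0288), and all 3 probe sets fell, with changes of -0.72, -0.67 and -0.56 (adjusted p = 0.0178, 0.0299 and 0.0384). With phenobarbital it was -0.64 (SE 0.23, adjusted p = 0.0570), just short of the threshold, and it passed without CTNNB1KO control replicate 7 (adjusted p = 0.0262) or phenobarbital replicate 1, 2 or 3 (adjusted p from 0.0431 to 0.0484). It also passed without CTNNB1KO control replicates 2, 6 and 7 (adjusted p = 0.0121). Phenobarbital in CTNNB1KO gave -0.27 (adjusted p = 0.578), and -0.63 (adjusted p = 0.0466) without those 3 arrays, which hold the lowest Ppara values of their group. The order of group means, 10.02, 9.71, 9.34 and 9.07, was that of Nr1i3.

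The Ppara value for genotype without phenobarbital moved with a few arrays and with macrophage markers. Without replicates 2, 6 and 7 of the CTNNB1KO controls it was -0.32 (adjusted p = 0.329). Leaving out replicate 2, 6 or 7 alone, or wild-type control replicate 2, 3 or 4 alone, gave changes from -0.68 to -0.53 with adjusted p from 0.0509 to 0.0748. With the macrophage marker mean as a covariate it was 0.01 (adjusted p = 0.980), and the value with phenobarbital was 0.13 (adjusted p = 0.703). Because the genotypes do not overlap in that mean on either diet, these values rest on differences within groups. In CTNNB1KO with phenobarbital, Ppara and the macrophage mean had r = -0.822 over 7 arrays (exact permutation p = 0.0363, Spearman rho -0.786 with exact p = 0.0480). Benjamini-Hochberg adjusted over 16 such relations p was 0.142, and r was -0.756 without the 2 arrays farthest from the median. Nr1i3 in the same arrays had r = -0.0492 (exact permutation p = 0.931, rho 0.214 with exact p = 0.661, adjusted p = 0.974, r = -0.648 without the 2 farthest). In CTNNB1KO without phenobarbital the macrophage mean fell into 3 arrays of 7.44 to 7.55 and 4 of 8.89 to 9.72, so no correlation over the group is given. Nr1i3 read 7.41, 7.79 and 8.19 in the first 3 and 7.70, 6.09, 6.69 and 6.42 in the other 4, and Ppara 9.86, 9.80 and 9.85 against 9.28, 9.18, 8.94 and 8.48. Both genes were thus lower where macrophage markers were higher, apart from 1 array for Nr1i3. The part of macrophages in the Ppara result was not tested beyond these values.

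Nr1h3, the gene of the cholesterol sensor LXRα, passed the limma test in none of the 5 comparisons. Its wild-type arrays read 7.74, 7.82, 7.84, 7.77 and 7.69 without phenobarbital and 7.87, 7.84, 7.83 and 7.87 with it. CTNNB1KO arrays ran from 7.69 over 7.97 to 8.23 and from 7.69 over 7.91 to 8.06. The CTNNB1KO arrays covered the wild-type range and reached higher. The largest log2 change in the pairwise comparisons was 0.16 (SE 0.08, adjusted p = 0.133) for genotype without phenobarbital, and it was 0.01 (adjusted p = 0.981) with the macrophage covariate. Without CTNNB1KO control replicate 5 it passed, at 0.20 (adjusted p = 0.0467). LXRα is also made by macrophages.

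Nr5a2, the gene of LRH-1, which controls bile acid synthesis, passed the limma test in none of the 5 comparisons. Wild-type arrays read 9.52, 9.48, 9.51, 9.46 and 9.12 without phenobarbital, so replicate 5 was low, and 9.16, 9.20, 9.33 and 9.14 with it. CTNNB1KO arrays ran from 8.99 over 9.24 to 9.38 and from 9.02 over 9.15 to 9.22. Apart from replicate 5, the wild-type controls lay above all other arrays. Genotype without phenobarbital gave -0.19 (SE 0.07, adjusted p = 0.0568) and phenobarbital in wild type -0.21 (SE 0.08, adjusted p = 0.200). Without wild-type control replicate 5 both passed, at -0.27 (adjusted p = 0.00737) and -0.29 (adjusted p = 0.0324). The genotype value also passed without CTNNB1KO control replicate 3, 5 or 7, at adjusted p from 0.0323 to 0.0497. It passed as well with quantile normalization (adjusted p = 0.0291) and with the mean of probe sets (adjusted p = 0.0331). Without CTNNB1KO control replicates 2, 6 and 7 it was -0.20 (adjusted p = 0.132), and with the macrophage covariate -0.16 (adjusted p = 0.364). In that comparison 1420410_at, 1449706_s_at and 1456521_at gave -0.22, -0.20 and -0.19 (limma adjusted p = 0.0908, 0.0629 and 0.0618). Of its 4 probe sets, 1449706_s_at fell in CTNNB1KO with phenobarbital (-0.34, adjusted p = 0.00730), where 1456521_at gave -0.07. 1449707_at was above the filter in 0 arrays.

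Ppargc1a, which encodes the coactivator PGC-1α of gluconeogenesis and mitochondrial genes, was highest in wild type without phenobarbital. Those arrays read 7.41, 7.23, 7.56, 7.68 and 6.86. With phenobarbital wild type read 6.75, 7.04, 6.75 and 6.87. CTNNB1KO arrays ran from 6.27 over 7.08 to 7.30 and from 6.38 over 6.75 to 7.04. Replicate 5 of the wild-type controls lies within the phenobarbital group, and the other 4 lie above it. Phenobarbital in wild type gave -0.49 (SE 0.18, interval -0.87 to -0.11, adjusted p = 0.161), and it passed with array weights (-0.49, adjusted p = 0.0201) and with 1 weight per group (adjusted p = 0.0328). Genotype without phenobarbital gave -0.40 (SE 0.16, adjusted p = 0.0701), and it passed without CTNNB1KO control replicate 5 (-0.46, adjusted p = 0.0392) or wild-type control replicate 5 (-0.52, adjusted p = 0.0249). Without CTNNB1KO control replicates 2, 6 and 7 it was -0.25 (adjusted p = 0.330), and with the macrophage covariate -0.29 (adjusted p = 0.475). Of the 5 probe sets, 1434099_at fell under phenobarbital in wild type (-0.68, adjusted p = 0.0147). In CTNNB1KO without phenobarbital it fell too (-0.51, adjusted p = 0.0127), as did 1434100_x_at (-0.43, adjusted p = 0.0400). The 5 probe sets all gave values below 0 for phenobarbital in wild type, from -0.68 to -0.31.

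**Figure D2:**
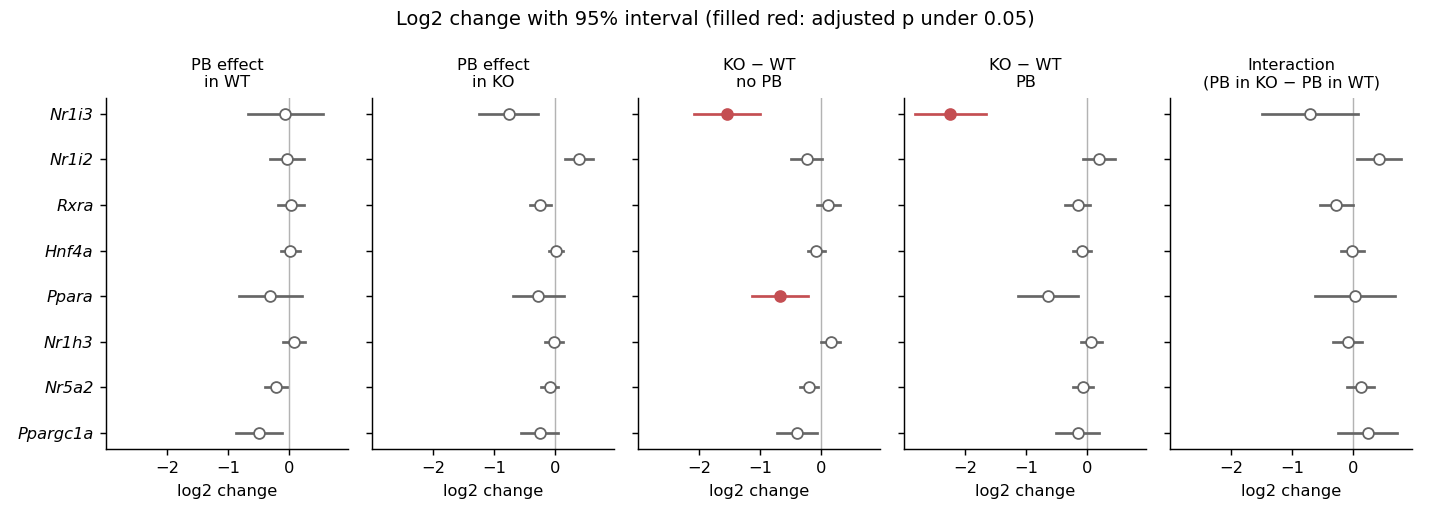
Log2 change of each gene with its 95% interval in the 5 comparisons (filled red where the adjusted p is under 0.05). Nr1i3 in both genotype comparisons and Ppara without phenobarbital are the filled points, at -1.54, -2.24 and -0.67.

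Counted over the 8 genes, 0 changed with phenobarbital in wild type, where limma called 3.85% of all 13826 genes tested (1.95% rose and 1.9% fell), and 2 had an unadjusted p under 0.05. In CTNNB1KO phenobarbital changed 0 of 8 against 2.05% of all genes (1.17% rose and 0.882% fell), with 3 at an unadjusted p under 0.05. Genotype without phenobarbital lowered 2 of 8, where 10.1% of all genes fell and 25% changed. Genotype with phenobarbital lowered 1 of 8, where 8.12% fell and 20% changed. The interaction called 0 of 8 against 0.875% of all genes, with 2 at an unadjusted p under 0.05. The median log2 change of the 8 was -0.05, -0.16, -0.21, -0.12 and 0.01 in this order, against medians over all genes between -0.0047 and 0.0079. All arrays of Nr1i3 were lower in both genotype comparisons, and those of Ppara in the one with phenobarbital. Such separation held for 10.6% of all genes without phenobarbital and 18.6% with it.

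Among the 21 probe sets tested, 1 fell with phenobarbital in wild type and 1 rose in CTNNB1KO, against 3.83% and 2.89% of 24089 probe sets changed. In CTNNB1KO 7 fell without phenobarbital and 2 with it, against 22.6% and 18.3% changed. The interaction called 0, with 1 at an unadjusted p under 0.05 in limma, against 1.03% of all. Probe sets of Rxra differed in direction, as did those of Hnf4a, whereas the 3 of Ppara ran the same way in both genotype comparisons.

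**Figure D3:**
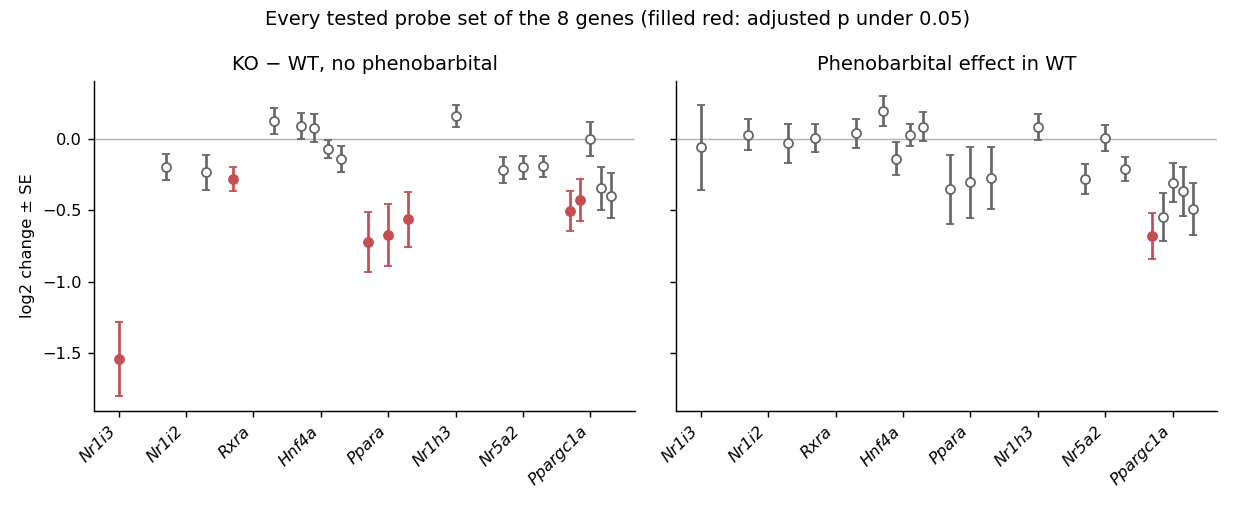
Log2 change with SE for each of the 21 tested probe sets, grouped by gene, for genotype without phenobarbital and for phenobarbital in wild type. Left, Nr1i3 is the lowest point at -1.54, and the 3 Ppara probe sets lie between -0.72 and -0.56. Right, 1 Ppargc1a probe set is filled, at -0.68.

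CAR target genes responded to phenobarbital in both genotypes. Of 40 listed, 34 had a probe set of their own and passed the filter. In wild type 20 rose and 0 fell, and in CTNNB1KO 17 rose and 0 fell, where 1.95% and 1.17% of all genes rose. The median log2 change was 1.18 and 0.81. Without CTNNB1KO control replicates 2, 6 and 7, 25 and 22 rose and 0 fell. Cyp2b10, a cytochrome P450, rose from 5.68 ± 0.39 to 12.64 ± 0.05 in wild type (SD, n = 5 and 4), by 6.96 (SE 0.37, adjusted p = 1.75e-11). In CTNNB1KO it rose from 9.75 ± 0.98 to 12.76 ± 0.17 (SD, n = 7 each), by 3.01 (SE 0.29, adjusted p = 2.19e-06). The interaction of -3.95 (SE 0.47, adjusted p = 4.00e-05) lies between groups that reached similar levels with phenobarbital, where genotype gave 0.11 (SE 0.35, adjusted p = 0.842). It came with a higher control level in CTNNB1KO, by 4.06 (SE 0.32, adjusted p = 1.14e-08). Cyp2b10 was thus high in CTNNB1KO controls while Nr1i3 was low there.

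Of the 34 targets, 9 had a different phenobarbital response between genotypes. The response of 8 was smaller in CTNNB1KO and that of 1 larger, against 0.521% and 0.354% of all genes tested. Without wild-type control replicate 2, wild-type phenobarbital replicate 1, 2 or 3, or CTNNB1KO phenobarbital replicate 6, the 9 were 4 or 5. Cyp2b9, another P450, went from 4.01 to 9.05 in wild type and from 7.60 to 8.95 in CTNNB1KO (interaction -3.69, SE 0.82, adjusted p = 0.0302). Sult1e1, which sulphates oestrogens, went from 3.68 to 7.78 in wild type and from 4.03 to 4.27 in CTNNB1KO (interaction -3.86, SE 0.40, adjusted p = 3.19e-06). Cyp2c65 went from 3.27 to 10.10 and from 3.09 to 7.09 (interaction -2.83, adjusted p = 0.000129). Cyp2c37 was the one with the larger response, from 10.99 to 13.29 in wild type and from 6.99 to 11.64 in CTNNB1KO (2.34, adjusted p = 0.0236). Levels of Sult1e1 in all groups but wild type with phenobarbital, control levels of Cyp2c65 and those of Cyp2b9 in wild type lie below the filter level of 4.52 to 4.60. The size of a change from or to such a level is uncertain. In these means Cyp2b10 and Cyp2b9 reached wild-type levels from a higher start, while Sult1e1 and Cyp2c65 stayed below. With phenobarbital, 15 targets were lower and 1 higher in CTNNB1KO than in wild type, where 8.12% of all genes fell and 11.9% rose. Without it 7 were lower and 6 higher, where 10.1% of all genes fell and 14.8% rose.

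**Figure D4:**
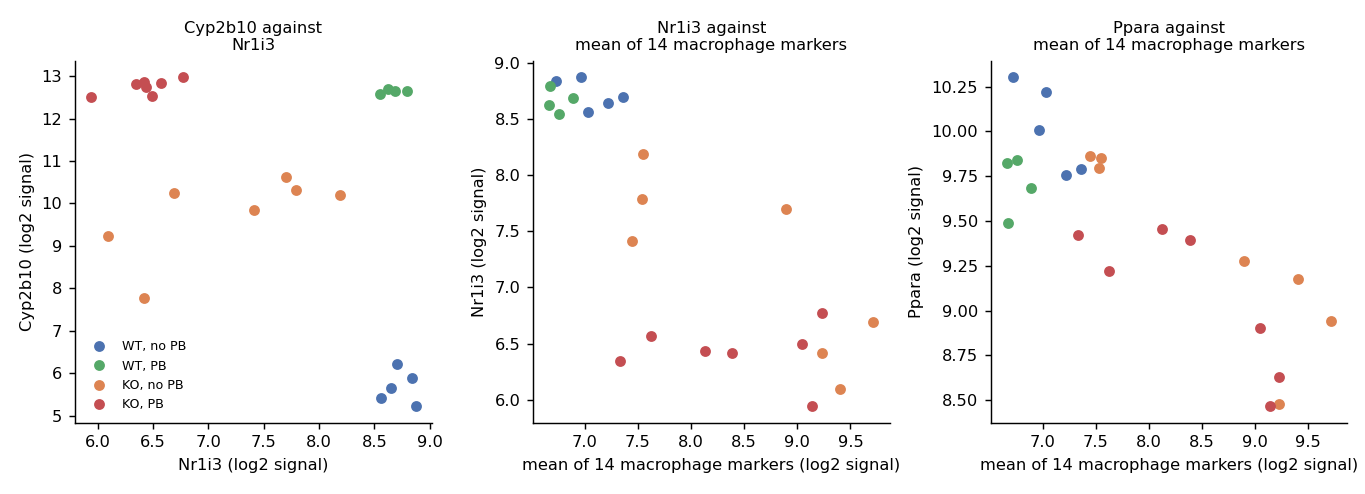
Each point is 1 of the 23 arrays, coloured by genotype (WT, KO) and phenobarbital (PB). Left, Cyp2b10 against Nr1i3, where wild-type and CTNNB1KO arrays with phenobarbital share high Cyp2b10 at different Nr1i3. Middle and right, Nr1i3 and Ppara against the mean of 14 macrophage markers, where 4 CTNNB1KO control arrays lie at 8.89 to 9.72 on the horizontal axis.

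Receptor RNA was also entered into the model beside the groups, 1 gene at a time. The Cyp2b10 interaction was -3.41 (SE 0.41) with Nr1i3, -4.30 (SE 0.53) with Nr1i2, -3.41 (SE 0.45) with Rxra and -3.93 (SE 0.42) with Hnf4a. With Ppara, Nr1h3, Nr5a2 and Ppargc1a it lay between -4.26 and -3.79. It stayed past the threshold with each of the 8. The number of CAR targets with a different response was 9 with Nr1i3, but 6 of these were among the 9 called without it. It was 5 with Nr1i2, and between 8 and 10 with the other 6 genes. Nr1i3 level and genotype cannot be told apart across genotypes, since no CTNNB1KO array reached the wild-type range. The covariate therefore draws on differences within groups.

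Within the CTNNB1KO groups, 16 relations of a receptor's level to Cyp2b10 were computed over 7 arrays each, and 0 passed the threshold after Benjamini-Hochberg adjustment. Nr1i3 had r = 0.670 without phenobarbital (exact permutation p = 0.0784, rho 0.643 with exact p = 0.139, adjusted p = 0.211). Without the 2 arrays farthest from the median r was 0.151, so the relation rests on those arrays. With phenobarbital r was 0.696 (exact permutation p = 0.0694, rho 0.571 with exact p = 0.200, adjusted p = 0.211) and -0.217 without the 2 farthest. The largest was Ppargc1a without phenobarbital, with r = 0.907 (exact permutation p = 0.0165, rho 0.571 with exact p = 0.200, adjusted p = 0.132), and it was 0.0112 without the 2 farthest. Both wild-type groups hold too few arrays for a relation.

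PXR targets followed the same direction under phenobarbital. All those tested except Abcb1a, Cd36 and Thrsp are also on the CAR list, so this is no separate result. Of 17 tested, 9 rose in wild type and 6 in CTNNB1KO, and 0 fell, where 1.95% and 1.17% of all genes rose. Without CTNNB1KO control replicates 2, 6 and 7, 10 and 9 rose. Cyp2c55, a P450, rose by 4.53 (SE 0.37, adjusted p = 2.80e-08) and 3.999 (SE 0.29, adjusted p = 9.91e-09). Without phenobarbital 4 were higher and 1 lower in CTNNB1KO, where 14.8% of all genes rose and 10.1% fell. With it 2 were higher and 5 lower, where 11.9% of all genes rose and 8.12% fell. Cd36, a fatty acid transporter also carried by macrophages, was higher by 2.89 (SE 0.34, adjusted p = 3.81e-06) and 2.48 (SE 0.36, adjusted p = 5.90e-05). Cyp3a11, the classical PXR target, read 14.26 ± 0.06 and 14.41 ± 0.02 in wild type (SD, n = 5 and 4) and 14.24 ± 0.08 and 14.38 ± 0.05 in CTNNB1KO (SD, n = 7 each). None of its comparisons passed the threshold. In both genotypes all its arrays with phenobarbital lay above all those without it. The log2 change was 0.15 in each (limma adjusted p = 0.102 in wild type and 0.0530 in CTNNB1KO). Arrays separated in this way for 11.6% of all genes in wild type and 0.976% in CTNNB1KO. Its levels lie near the highest value of any probe set, 14.92.

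Counts for targets of the other receptors are read against the 25% and 20% of all genes that changed with genotype without and with phenobarbital. Of all genes, 10.1% fell and 14.8% rose in CTNNB1KO without phenobarbital, and 8.12% fell and 11.9% rose with it. Phenobarbital changed 3.85% of all genes in wild type and 2.05% in CTNNB1KO. Without CTNNB1KO control replicates 2, 6 and 7 it changed more of all genes in both, so phenobarbital counts from that fit cannot be set against these shares. Of 25 PPARα targets tested, 7 fell and 0 rose in CTNNB1KO without phenobarbital, and 5 fell and 0 rose with it. Taken in both directions, these counts were near the shares of all genes changed. All were falls, however, and lay above the shares of all genes that fell. Aldh3a2, a fatty aldehyde dehydrogenase, fell, with changes of -2.80 (SE 0.26, adjusted p = 1.48e-07) and -2.91 (SE 0.28, adjusted p = 1.74e-07). Pdk4, a kinase that restrains glucose oxidation, changed by -1.66 (SE 0.24, adjusted p = 5.79e-05) and -1.88 (SE 0.26, adjusted p = 2.84e-05). The counts without phenobarbital were 3 fallen and 2 risen without replicates 2, 6 and 7, and 2 fallen and 1 risen with the macrophage covariate. With phenobarbital they were 11 fallen and 2 fallen with 2 risen in the same 2 settings. Phenobarbital changed 1 PPARα target in wild type, the thioesterase Acot1 (-1.10, SE 0.27, adjusted p = 0.0193), and 0 in CTNNB1KO, with 3 at an unadjusted p under 0.05 in limma. Without the 3 arrays it lowered 5 in CTNNB1KO.

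Of 28 HNF4α targets, 5 fell and 2 rose in CTNNB1KO without phenobarbital, and 4 fell and 2 rose with it. The list includes Nr1i3, Nr1i2 and Ppara. Nr1i3 and Ppara are among those that fell without phenobarbital, and Nr1i3 among those with it. Taken in both directions, the counts were again near the shares of all genes changed. The share that fell was above that of all genes, and the share that rose below it. The excess that fell partly counts Nr1i3 and Ppara again, so it is not read as a trait of HNF4α targets. Without replicates 2, 6 and 7 of the CTNNB1KO controls the counts were 3 fallen and 1 risen, and 9 fallen and 2 risen. Phenobarbital in CTNNB1KO then lowered 7 and raised 1, against 0 changed with all arrays, of which 5 had an unadjusted p under 0.05 in limma. With all arrays 2.05% of all genes changed, and the fit without those 3 called more of all genes too. Slco1b2, a hepatocyte uptake transporter, fell, with changes of -1.73 (SE 0.18, adjusted p = 9.98e-07) and -1.47 (SE 0.20, adjusted p = 1.99e-05). Of 12 LRH-1 targets 2 fell without phenobarbital, Cyp7a1, the rate-limiting enzyme of bile acid synthesis (-0.96, SE 0.33, adjusted p = 0.0372), and Nr0b2, the corepressor SHP (-0.55, SE 0.20, adjusted p = 0.0497). With phenobarbital 0 of the 12 passed, with 1 at an unadjusted p under 0.05 in limma. Leaving out the 3 arrays gave 0 fallen without phenobarbital and 2 with it. Phenobarbital in CTNNB1KO lowered 3 LRH-1 targets without those arrays and 0 with them, where 3 had an unadjusted p under 0.05 in limma. Of 18 LXR targets 7 rose and 2 fell without phenobarbital, and 5 rose and 0 fell with it. Without those 3 arrays 4 rose and 0 fell, and 6 rose and 2 fell. Those that rose most were Lpl, a lipase (1.15 and 2.29), and Abcg1, a sterol transporter (1.12 and 0.94), both also made by macrophages. With the macrophage covariate 2 and 4 LXR targets rose and 0 fell. Of 18 PGC-1α targets 1 rose and 2 fell without phenobarbital, and 2 fell with it. Taken in both directions, these counts were below the 25% and 20% of all genes changed. Without the 3 arrays 2 rose and 1 fell, and 1 rose and 4 fell. Idh3a, a subunit of a citric acid cycle enzyme, fell, with changes of -0.74 (SE 0.0599, adjusted p = 1.62e-08) and -0.99 (SE 0.0642, adjusted p = 2.54e-10).

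Genes of the route by which phenobarbital activates CAR include EGFR pathway members, chaperones and phosphatase subunits. Of 18 tested, limma called 0 with phenobarbital in either genotype, with 3 at an unadjusted p under 0.05 in wild type and 1 in CTNNB1KO. These counts are near the 3.85% and 2.05% of all genes that phenobarbital changed. In CTNNB1KO without phenobarbital 3 rose and 1 fell, and with it 3 rose and 2 fell, against 25% and 20% of all genes changed. Map2k2, the kinase MEK2, fell, with changes of -0.34 (SE 0.07, adjusted p = 0.00210) and -0.39 (SE 0.08, adjusted p = 0.00129). Hspa1b, a heat shock protein, was lower in CTNNB1KO than in wild type among mice given phenobarbital (-1.52, SE 0.40, adjusted p = 0.0104). Ppp2r1a, a scaffold subunit of protein phosphatase 2A, was higher in CTNNB1KO without phenobarbital by 0.24 (SE 0.06, adjusted p = 0.00554). Without replicates 2, 6 and 7, 0 rose and 2 fell in the comparison without phenobarbital, and 1 rose with the drug in each genotype.

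Of 32 other nuclear receptors tested, phenobarbital changed 0 in either genotype, with 4 at an unadjusted p under 0.05 in wild type and 3 in CTNNB1KO in limma. Phenobarbital changed 3.85% and 2.05% of all genes, so few calls would be looked for in a list of this size. Without phenobarbital 4 were higher and 2 lower in CTNNB1KO, and with it 3 were higher and 0 lower, below the 25% and 20% of all genes changed. Without the 3 arrays 4 and 3 were higher and 0 lower. Esr1, the oestrogen receptor α, rose by 0.82 (SE 0.13, adjusted p = 0.000133) and 0.90 (SE 0.14, adjusted p = 0.000121). Of 29 coregulators and partner factors, 4 rose and 3 fell in each genotype comparison, near the shares of all genes. Foxa1, a pioneer factor, fell, with changes of -0.78 (SE 0.24, adjusted p = 0.0216) and -0.89 (SE 0.26, adjusted p = 0.0179), and its relative Foxa3 rose by 0.43 (SE 0.14, adjusted p = 0.0251) and 0.72 (SE 0.15, adjusted p = 0.00158). Prox1, a corepressor of HNF4α and LRH-1, fell with phenobarbital in wild type (-0.78, SE 0.19, adjusted p = 0.0204). Crebbp, the coactivator CBP, fell with phenobarbital in CTNNB1KO (-0.39, SE 0.05, adjusted p = 3.05e-05), and its interaction was -0.34 (SE 0.07, adjusted p = 0.0234). Without replicates 2, 6 and 7, 0 of the 29 rose and 1 fell without phenobarbital, and 7 rose and 3 fell with it.

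The genes most like Nr1i3 over the 23 arrays were Akr1c6, Camk1d, Acadl, Slc19a2 and Col27a1, with Pearson r from 0.945 down to 0.924. This likeness includes the difference between groups. With group means subtracted, the most like were Eci1 (r = 0.879), Csrp3, Met, Srgap3 and Cyp2c50 (r = 0.834). For Nr1i2 they were Timm50, Afg3l1, Gstt2, Dus1l and Prmt1 as measured, with r from 0.770 down to 0.684. With group means subtracted they were Crip2 (r = 0.789), Aprt, Galnt6, Dus1l and Ackr4 (r = 0.714). Among the 8 genes themselves, with group means subtracted, Rxra and Ppara had r = 0.646 and Nr1i3 and Ppara 0.568. Nr1i3 and Nr1h3 had -0.573, and Nr1i3 and Nr1i2 -0.0673. These are descriptions over arrays that share their normalization and, within CTNNB1KO, their macrophage marker levels.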

How the data were processed

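RNA of 23 liver samples was measured on Affymetrix arrays. The deposited values are on a log2 scale, 1 per probe set, made by the authors by RMA with affy, per the submitters' processing notes. No versions are given in the sources used here, nor which arrays were processed as a set. They were taken as deposited. The platform annotation gave 34945 of 45037 probe sets a single gene, 932 several and 9160 none. Symbols were updated by Entrez identifier against the RefSeq GRCm38.p6 table for 34741 and left as they were for 204. Per gene, the probe set of highest mean was used. Genes above an array's 40th percentile in 4 or more arrays were tested, 13826 of 18193, and likewise 24089 probe sets.

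Tests used limma 3.58.1 (R 4.3.3; lmFit and eBayes) with 4 group means over all arrays, two-sided, Benjamini-Hochberg adjusted over everything tested, at a threshold of 0.05. The model was tested on simulated data. The 5 comparisons were phenobarbital in each genotype, genotype on each diet, and the interaction, which is the phenobarbital effect in CTNNB1KO minus that in wild type. Groups are given as mean ± SD and changes as log2 with SE. Values given with a relation within a group come from exact two-sided permutation tests. The 8 genes, the gene lists and the model were chosen with earlier results of these data known. Named genes were all 8 members, fixed control genes, up to 3 changed members per list and comparison with the largest change, and the 5 genes most like Nr1i3 and Nr1i2. Listed genes without a probe set of their own are not analysed here. Replicate numbers were not used as pairs in the main model, since the labels state no pairing. Alternatives were other filters, quantile normalization, centring on medians, averaged probe sets, a trended and robust prior, array and group weights, a replicate block, only the compared groups, receptor covariates and leaving out each array. A macrophage covariate and a fit without 3 arrays were chosen after seeing the data.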

Additional observations from a re-analysis of the deposited data

Results flagged for a closer look

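Of the 32 pairs of 1 gene and 1 group, 2 held an array far from the others. Rxra in wild type with phenobarbital read 8.82 in replicate 2, while the other 3 arrays lay between 9.06 and 9.11. Nr5a2 in wild type without phenobarbital read 9.12 in replicate 5, while the other 4 lay between 9.46 and 9.52. The gap is judged against a 95% critical value, which chance passes in about 1 in 20 groups. Both arrays are of wild type. No array of CTNNB1KO was set apart in this way for any of the 8 genes.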

How the results depend on the processing

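Nr1i3 stayed lower in CTNNB1KO past the threshold in all 35 alternatives of each diet, with log2 changes from -1.71 to -0.95 without phenobarbital and from -2.30 to -1.58 with it. The Cyp2b10 interaction passed in all 42, from -4.60 to -3.41. Ppara without phenobarbital turned to 0.0122 (adjusted p = 0.980) with the macrophage covariate. Where no cause is named, the cause was not tested.

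The count of the 8 genes changed without phenobarbital, 2, was 5 with quantile normalization and 1 with array weights, with only the groups compared, with the replicate block or without replicates 2, 6 and 7. With phenobarbital the count of 1 was 2 with array weights, 1 weight per group, only the groups compared or without those 3 arrays. For phenobarbital in CTNNB1KO, 0 became 1 with the filter at the 60th percentile, quantile normalization or the mean of probe sets, 2 with array weights, and 3 without the 3 arrays or with the macrophage covariate. For phenobarbital in wild type, 0 became 1 with array weights or 1 weight per group. The interaction count of 0 was 1 without the 3 arrays. Leaving out 1 array gave 1 to 5 and 1 to 2 in the genotype comparisons, 0 to 1 for phenobarbital in either genotype, and 4 to 10 CAR targets with an interaction. That count of 9 was 4 or 5 without CTNNB1KO phenobarbital replicate 6, wild-type control replicate 2, or wild-type phenobarbital replicate 1, 2 or 3, and 5 with Nr1i2 as covariate. Probe sets changed by genotype without phenobarbital, 7, were 11 with quantile normalization and 4 with the block. For phenobarbital in CTNNB1KO 1 became 0 with no filter, median centring or the block, and in wild type 1 became 2 with the block. With the mean of probe sets, 1 relation to Cyp2b10 passed, against 0.

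Same-numbered arrays of different groups had correlated deviations above 0.1 in 5 of 29 pairs (median -0.0080, range -0.695 to 0.628). So wide a range cannot decide whether the numbers pair samples, and the labels state no pairing. The replicate block lowered the count of all genes changed by genotype from 3453 to 1967 and from 2772 to 1606. Over all genes, phenobarbital in wild type called 532, against 1503 with array weights, 1241 with 1 weight per group, 929 with only the groups compared, 810 without the 3 arrays and 1001 with the macrophage covariate. In CTNNB1KO it called 284, against 461, 126, 100, 786 and 620 in this order. Genotype without phenobarbital called 3453, against 2078 with only the groups compared, 1535 without the 3 arrays and 1028 with the macrophage covariate. With phenobarbital it called 2772, against 4574 and 4576 with the 2 kinds of weights and 1513 with the covariate. The interaction called 121, against 323 with array weights, 273 without the 3 arrays and 282 with the covariate. Over the 8 receptor covariates the genotype comparisons called 370 (Nr1i3) to 5368 (Rxra) without and 349 (Nr1i3) to 2598 (Nr5a2) with phenobarbital. Phenobarbital called 340 (Nr5a2) to 1255 (Ppara) in wild type and 127 (Nr1i2) to 1969 (Rxra) in CTNNB1KO, and the interaction 86 (Nr1i2) to 399 (Rxra). Without wild-type phenobarbital replicate 3 the interaction called 63. Of the genes phenobarbital changed in CTNNB1KO, 57.0% were higher, and 67.5% with quantile normalization. No setting moved the median of all genes by more than 0.034. Of 1247 values of the 8 genes below the threshold, 45 turned sign, 15 of them of Hnf4a.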
